A study of Mus musculus with 4 samples.

Results

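The LIM homeobox genes Lhx1, Lhx2, Lhx3, Lhx4, Lhx5, Lhx9, Isl1, Isl2, Lmx1a and Lmx1b were examined in the frontonasal prominence (FNP), which gives rise to the nose and snout. The genes were chosen by name, and all 10 were found among the 33708 autosomal genes of the table. RNA was sequenced from 4 mouse embryos on the FVB/NJ background at E10.5 with 29 somites. The wild type (Smchd1+/+, WT) was represented by 2 embryos, of which 1 is labelled female and 1 male. The mutant genotype was Smchd1MommeD43/MommeD43 (MD43), with 2 male embryos. MommeD43 is a chemically induced missense allele in the extended ATPase domain of the chromatin protein SMCHD1. The comparison asks which transcripts of this tissue differ in level when SMCHD1 carries the MommeD43 change. A column heading in the study's supplement calls WT replicate 2 female where its label says male. Under that heading genotype cannot be told apart from sex. The embryos numbered 2 of both genotypes shared a mother.

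LIM homeobox genes encode transcription factors that carry a pair of LIM domains, which bind partner proteins, and a homeodomain, which binds DNA. They act with the adaptor LDB1, and combinations of them specify neuron types and regions of the forebrain, eye and pituitary. The members form paralogue pairs, namely Lhx1 with Lhx5, Lmx1a with Lmx1b, Lhx2 with Lhx9, Isl1 with Isl2, and Lhx3 with Lhx4. The mesenchyme that makes up most of the FNP is not their main site of action, but forebrain, olfactory and oral epithelium lie next to it.

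The 2 libraries of a genotype were merged by the authors into 1 log2 RPKM value (reads scaled for library size and exon length), so no difference here has a replicate check and no p-value is given. The values imply 22328791 counted reads per library in MD43 and 16055882 in WT, a ratio of 1.39. Reads given below are the geometric mean over the 2 libraries of a genotype. The error of a difference is the smallest standard error (SE) that counting alone allows, without the variation between embryos. Differences are MD43 minus WT on the log2 scale. Smchd1 itself lay at 3.31 log2 RPKM in WT and 3.30 in MD43, and a missense allele is not checked by its RNA level. The labelled tissue was checked with 11 facial mesenchyme markers, all of which had reads in both genotypes, such as Alx4 (2693 reads in MD43 and 1926 in WT), a homeobox gene of facial mesenchyme. The 7 Hox genes of hindbrain and trunk all stayed under 10 reads in both genotypes.

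Lhx2 was the most abundant member in both genotypes. In WT the levels ran from Lhx2 (5.21 log2 RPKM) through Lhx5 (3.69), Lmx1a (2.25), Lmx1b (1.76), Isl1 (1.51), Isl2 (-0.36), Lhx1 (-0.40), Lhx9 (-1.14) and Lhx4 (-3.70) to Lhx3 (-4.39). Isl2 and Lhx1 did not differ beyond 1.96 counting SE, nor did Lhx4 and Lhx3. In MD43 the order was Lhx2 (5.70), Lhx5 (2.56), Lmx1a (1.85), Isl1 (1.84), Lmx1b (1.03), Isl2 (0.42), Lhx1 (-1.43), Lhx9 (-1.65), Lhx3 (-2.23) and Lhx4 (-3.20). There the neighbours that lay within counting error were Lmx1a and Isl1, Lhx1 and Lhx9, and Lhx9 and Lhx3. Genes that reached 10 reads in WT or in MD43 are called measured genes here, and there were 15377. Among them, the mean level of Lhx2 was above 93.1% of genes and that of Lhx4 above 1.17%. The RPKM of all members summed to 63.0 in WT and 69.3 in MD43, and Lhx2 made up 58.8% and 74.8% of these sums. Without Lhx2 the sum was 26.0 in WT and 17.5 in MD43, a log2 difference of -0.57. Lhx5 had the largest part in this fall, with 12.9 RPKM in WT and 5.90 in MD43, while Isl1, Isl2, Lhx3 and Lhx4 were higher.

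**Figure D1:**
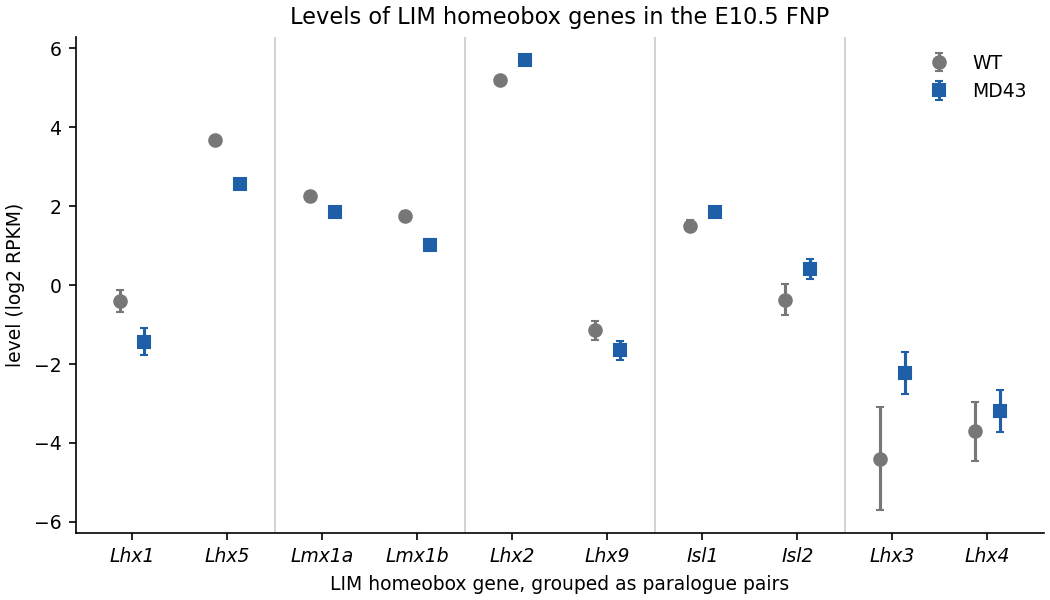
Level (log2 RPKM, vertical axis) of each LIM homeobox gene in WT (grey circles) and MD43 (blue squares), 1 merged value of 2 libraries per genotype, with bars of 1.96 counting SE. Both members of the pair Lhx1 and Lhx5 lay lower in MD43, both Isl genes lay higher, and Lhx3 and Lhx4 lay near the lower end of the scale.

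Of the 10 members, 5 were lower and 5 higher in MD43, and of all measured genes 48.8% were lower and 51.2% higher. At least 2-fold lower were 2 members, Lhx5 and Lhx1, where 2.47% of all genes were lower by that much. At least 2-fold higher was 1 member, Lhx3, where 1.64% of all genes were higher by that much. At a minimum of 1.5-fold the members lower were 3, with Lmx1b added, against 6.43% of all genes, and the members higher were 2, with Isl2 added, against 4.24%. The median difference of the members was -0.03, and that of all genes was 0.01. Over the 7 members with at least 50 reads in WT or MD43, which leaves out Lhx1, Lhx3 and Lhx4, the median was -0.40. The members ran from -1.12 to 2.16. For 9 of the 10 members the difference was larger than 1.96 counting SE, the exception being Lhx4. The share of all measured genes past this limit was not counted, and the limit leaves out variation between embryos. This count therefore does not set the members apart from other genes. All 10 members were measured genes, but Lhx3 and Lhx4 reached 10 reads in MD43 alone, where they were higher.

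**Figure D2:**
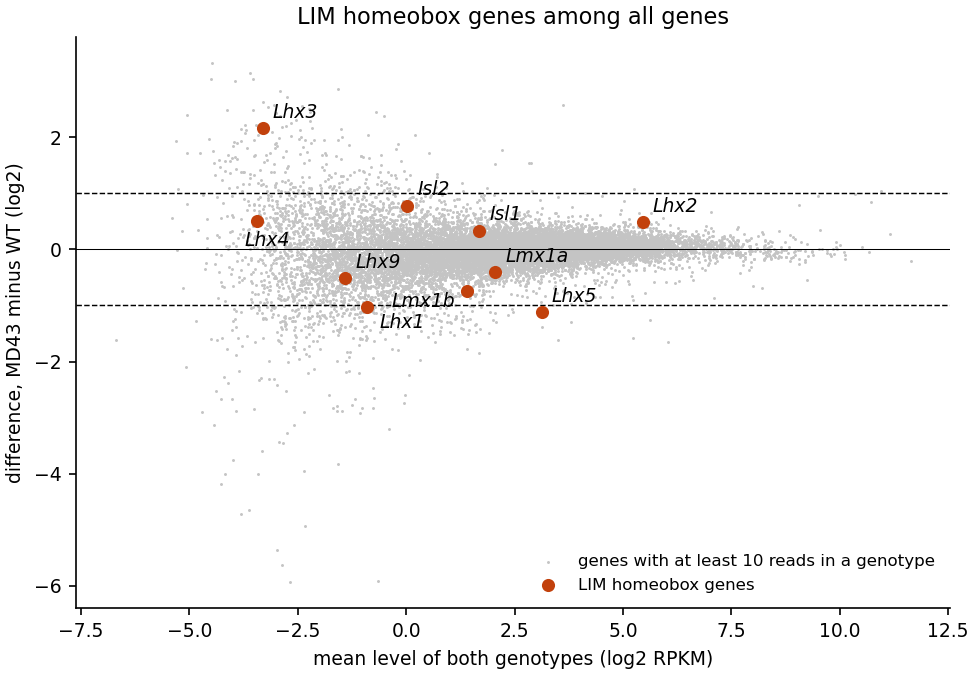
Difference (MD43 minus WT, log2, vertical axis) against the mean level of both genotypes (log2 RPKM, horizontal axis) for the 15377 measured genes (grey) and the 10 LIM homeobox genes (orange), with dashed lines at 2-fold. Lhx5 and Lhx1 lie below the lower line and Lhx3 above the upper line, where genes of low level spread widely.

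Lhx1 and Lhx5 encode factors of the forebrain and hypothalamus, where both mark young neurons and their progenitors. Lhx5 (ENSMUSG00000029595, GRCm38 chromosome 5, 120431699 to 120441223, plus strand) was counted with 556 reads in WT and 354 in the deeper MD43 libraries, at 3.69 and 2.56 log2 RPKM. The difference was -1.12 ± 0.07, or 2.18-fold lower in MD43. Among genes with 100 to 1000 reads on average, 0.725% were at least 2-fold lower. Lhx1 (ENSMUSG00000018698, chromosome 11, 84518284 to 84525535, minus strand) was counted with 49.6 reads in WT and 33.8 in MD43, at -0.40 and -1.43 log2 RPKM. Its difference was -1.03 ± 0.23, or 2.04-fold lower, so that it lay just past the 2-fold line. At its depth such a difference was more frequent, since 6.23% of genes with 10 to 100 reads on average were at least 2-fold lower. The differences of Lhx1 and Lhx5 lay 0.09 ± 0.24 apart, within counting error, although their mean levels were 4.04 apart on the log2 scale.

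Both genes have a non-coding neighbour on the opposite strand that was also lower in MD43. Gm27199, annotated as antisense, overlaps the first 69 bp of Lhx5, and its 5' end faces that of Lhx5. It had 23.0 reads in WT and 3.46 in MD43, a difference of -3.21 ± 0.59, or 9.22-fold lower. Lhx1os, a lincRNA that starts 124 bp from the start of Lhx1 on the other strand, was counted with 4.58 reads in WT and 1.73 in MD43. Its difference was -1.88, with a 95% counting interval from -3.66 to -0.10, and with the MD43 reads set to 3 it was -1.09, or 2.12-fold lower. The libraries were stranded, but whether the counting used strand is not given in the sources used here. Reads of Lhx5 and Gm27199 in their shared bases can therefore not be told apart, while Lhx1 and Lhx1os share no annotated base.

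In the bases before the start of Lhx1, the region from which Lhx1 and Lhx1os are transcribed in opposite directions, CpG dinucleotides were dense. It is shown as 249 bases before the outermost annotated start (RefSeq, GRCm38.p6, chr11:84525536-84525784, minus strand), with each CpG in capitals. It held 26 CpG and 64.7% G or C. The stretch before Lmx1b, which also has an opposite-strand neighbour, is 140 bases long (RefSeq, GRCm38.p6, chr2:33641209-33641348, minus strand) and held 10 CpG and 66.4% G or C. It lies wholly inside that neighbour, C130021I20Rik, which starts at 33641193. The Lhx1 stretch holds the 124 bp between the starts of Lhx1 and Lhx1os, and its remaining bases lie inside Lhx1os, which starts at 84525660. Because the stretches differ in length and position, their CpG counts are not set against each other.
Lhx1: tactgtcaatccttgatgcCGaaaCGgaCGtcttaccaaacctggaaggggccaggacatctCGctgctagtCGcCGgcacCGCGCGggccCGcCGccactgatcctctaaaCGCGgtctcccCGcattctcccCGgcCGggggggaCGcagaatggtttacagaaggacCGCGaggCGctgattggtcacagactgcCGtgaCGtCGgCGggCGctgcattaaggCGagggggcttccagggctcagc
Lmx1b: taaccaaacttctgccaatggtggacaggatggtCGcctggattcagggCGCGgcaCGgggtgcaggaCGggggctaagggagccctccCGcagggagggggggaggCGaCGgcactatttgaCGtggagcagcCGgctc

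RefSeq promoter windows of 300 bases (250 before and 50 after a start) were found for 9 of the 10 members, in 11 windows, with Lhx5 unmatched. They held 6 to 37 CpG with a median of 24, against a median of 7 over 32851 windows of all genes. The lowest was that of Lhx9 (6 CpG) and the highest that of Isl1 (37). The Lhx9 window (chromosome 1, 138842395 to 138842694) lies inside the gene, away from its outermost GENCODE start at 138848577. Some others, such as those of Lhx4 and Isl2, also lie inside their genes, so a window need not be the main promoter. TAATTA, the palindromic core to which many homeodomains bind, was in 0 of the 11 windows and in 5.29% of all windows. These counts describe the letters of the windows and do not show binding.

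Lmx1a and Lmx1b encode factors of the roof plate, cortical hem and ventral midbrain, and Lmx1b also acts in the limb and around the eye. Both were lower in MD43 by less than 2-fold. Lmx1a (ENSMUSG00000026686, chromosome 1, 167689237 to 167848741, plus strand) was counted with 259 reads in WT and 273 in MD43, at 2.25 and 1.85 log2 RPKM, a difference of -0.40 ± 0.09. Lmx1b (ENSMUSG00000038765, chromosome 2, 33560965 to 33640511, minus strand) was counted with 266 reads in WT and 222 in MD43, at 1.76 and 1.03 log2 RPKM, a difference of -0.73 ± 0.09. The differences of Lmx1a and Lmx1b lay apart by 0.33 ± 0.13. C130021I20Rik, an antisense gene that starts 681 bp beyond the GENCODE start of Lmx1b and overlaps 16 bp of its longer RefSeq form, was also lower in MD43, at 1.97 log2 RPKM in WT and 0.96 in MD43. It had 260 reads in WT and 180 in MD43, a difference of -1.003 ± 0.099, or 2.004-fold lower.

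Lhx2 was higher and Lhx9 lower in MD43. Lhx2, which is needed to form the eye and the cerebral cortex and is active in olfactory epithelium, had 2612 reads in WT and 5088 in MD43, at 5.21 and 5.70 log2 RPKM (ENSMUSG00000000247, chromosome 2, 38339281 to 38369733, plus strand). It was 1.40-fold higher, a difference of 0.49 ± 0.02. Lhx9, a gene of the thalamus and gonad, was counted with 68.9 reads in WT and 67.3 in MD43, at -1.14 and -1.65 log2 RPKM (ENSMUSG00000019230, chromosome 1, 138825186 to 138848577, minus strand). Its difference was -0.51 ± 0.17, from nearly equal read numbers in libraries of unequal depth, and the gap between the differences of Lhx2 and Lhx9 was 0.995 ± 0.18. Both antisense genes inside Lhx2 were higher in MD43 as well, but they lie wholly within Lhx2, and their few reads cannot be told apart from reads of Lhx2. Gm13584 was counted with 11.4 reads in WT and 24.5 in MD43 (0.63 ± 0.37). Gm27197 was counted with 4.58 and 13.7 reads (1.10 ± 0.55). On so few reads, the difference of Gm13584 was not larger than 1.96 counting SE.

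**Figure D3:**
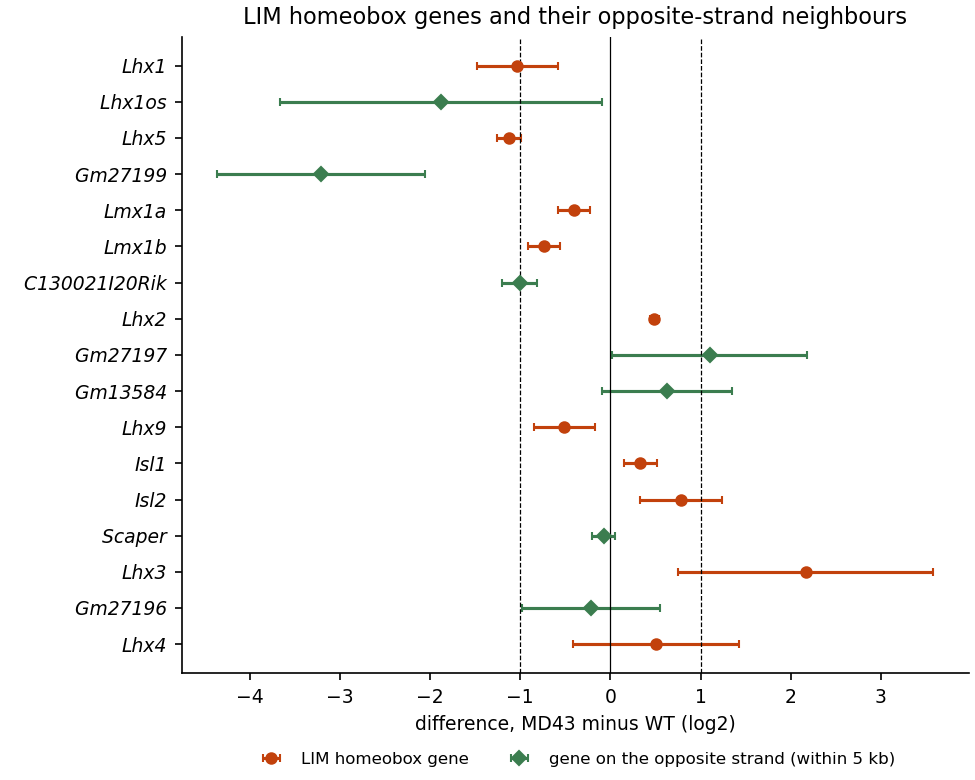
Difference (MD43 minus WT, log2, horizontal axis) of each LIM homeobox gene (orange circles) and of genes on the opposite strand within 5 kb that had over 3 reads in a genotype (green diamonds), with bars of 1.96 counting SE and dashed lines at 2-fold. The neighbours of Lhx1, Lhx5, Lmx1b and Lhx2 lie on the same side of 0 as the LIM gene listed above them, and those of Isl2 and Lhx3 do not.

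Over all members, 9 neighbours overlapped a member or lay on the opposite strand within 5 kb, and 7 of them had over 3 reads in a genotype. Lhx1os passed that limit in WT alone, where it was higher. The neighbours that did not share the sign of their member were Scaper, a protein-coding gene 3698 bp from Isl2 (434 reads in WT and 574 in MD43, -0.07 ± 0.06), and Gm27196, which shares 1588 bp with Lhx3, so that their reads cannot be told apart either (12.4 and 14.8 reads, -0.21 ± 0.39). Gm17226 in Isl2 and Gm38011 in Lmx1b had under 1 read in both genotypes.

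Isl1 and Isl2 encode factors of motor and sensory neurons, and Isl1 also marks oral and pituitary epithelium. Both were higher in MD43 by less than 2-fold. Isl1 (ENSMUSG00000042258, chromosome 13, 116298281 to 116309689, minus strand) was counted with 181 reads in WT and 317 in MD43, at 1.51 and 1.84 log2 RPKM, a difference of 0.33 ± 0.10. Isl2 (ENSMUSG00000032318, chromosome 9, 55538672 to 55546180, plus strand) was counted with 27.3 reads in WT and 65.3 in MD43, at -0.36 and 0.42 log2 RPKM, a difference of 0.78 ± 0.23. The difference of Isl2 exceeded that of Isl1 by 0.45 ± 0.25, which was within 1.96 counting SE.

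Lhx3 and Lhx4 act in the pouch of oral ectoderm that forms the pituitary, and later in motor neurons. Both were near the limit of detection. Lhx3 (ENSMUSG00000026934, chromosome 2, 26200212 to 26208289, minus strand) was counted with 2.32 reads in WT and 14.5 in MD43, at -4.39 and -2.23 log2 RPKM. The product of the reads of its 2 WT libraries was 5.4, which is what 0 reads in 1 library (entered as 0.9) and 6 in the other give. The MD43 product of 210 can be split in 8 ways, of which 14 and 15 reads is the most even. MD43 thus had at least 29 reads in total against 6 in WT, not scaled for the 1.39 times deeper MD43 libraries. The difference was 2.16, with an approximate 95% counting interval from 0.75 to 3.58, and with the WT reads set to a floor of 3 it came to 3.47-fold. How the MD43 reads divide between the embryos is not known.

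Lhx4 (ENSMUSG00000026468, chromosome 1, 155698031 to 155751684, minus strand) was counted with 7.07 reads in WT and 13.96 in MD43, at -3.70 and -3.20 log2 RPKM. The difference of 0.51 ± 0.47 was not larger than 1.96 counting SE. Its product of 50 in WT allows 3 splits, with 5 and 10 reads the most even, and that of 195 in MD43 allows 4, with 13 and 15 the most even. The same reading of products gave 22 and 34 reads as the most even split for Isl2 in WT and 54 and 79 in MD43, and 41 and 60 for Lhx1 in WT and 30 and 38 in MD43. Less even splits are also possible, such as 27 and 158 reads for Isl2 in MD43, where the read numbers of the genotypes would overlap.

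The other LIM homeobox genes of the mouse, Lhx6 and Lhx8, are markers of jaw and ventral forebrain and were both lower in MD43. Lhx8 had 101 reads in WT and 35.5 in MD43, a difference of -1.98 ± 0.20. Lhx6 had 69.8 reads in WT and 33.2 in MD43, a difference of -1.55 ± 0.22.

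The cofactors of these proteins differed little. Of 9 measured genes for LDB adaptors, LIM-only proteins, which compete for the adaptors, and SSBP proteins, which stabilise them, 0 were at least 2-fold lower or higher. Their differences ran from -0.32 to 0.03 with a median of -0.11. Ldb1, the main adaptor, lay at 5.64 log2 RPKM in WT and 5.67 in MD43 (0.03 ± 0.02), and Ssbp3 at 5.26 and 5.24 (-0.02 ± 0.02). Ldb2 was the lowest of them relative to WT, with 191 reads in WT and 212 in MD43 (-0.32 ± 0.10). The LIM-only genes Lmo1, Lmo2, Lmo3 and Lmo4 differed by -0.12, -0.11, -0.24 and -0.08, and Ssbp2 and Ssbp4 by -0.03 and -0.12.

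Markers of the tissues in which the LIM genes act were set beside them, since a dissected piece can hold different amounts of each. In such bulk samples, fewer cells of a type and less RNA per cell cannot be told apart. The list of diencephalon and hypothalamus genes, where Lhx1, Lhx5 and Lhx9 act, was mostly lower in MD43. Of its 14 genes, 13 were in the table and 10 were measured genes, of which 8 were at least 2-fold lower and 1, Foxa2, at least 2-fold higher. The median was -2.20, or -1.48 over the 13 genes with reads under 3 set to 3, and the summed RPKM 28.3 in WT and 12.9 in MD43. Its members with the most reads were Nkx2-1 (-0.45 ± 0.06), a gene of the hypothalamus, Dbx1 (-1.40 ± 0.15), a progenitor gene, and Barhl2 (-5.91 ± 0.50), a diencephalic factor. This list was drawn up with changed genes of these samples known and is not independent evidence of a direction.

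Lists for the hem, roof plate and early cortical neurons, where Lmx1a and Lhx5 act, were lower by less. Of 7 measured genes of the cortical hem and roof plate, 3 were at least 2-fold lower and 0 higher, with a median of -0.57. They included the Wnt ligand Wnt8b (0.04 ± 0.04) and the Wnt signalling enhancers Rspo1 (0.25 ± 0.05) and Rspo2 (-0.57 ± 0.05), so that the genes with the most reads did not share a direction. All 4 genes of Cajal-Retzius neurons, the first neurons of the cortex, were lower, 2 of them at least 2-fold (median -0.74). Of 11 forebrain and eye progenitor genes, 3 were at least 2-fold lower and 0 higher, with a median of -0.35. Of its abundant genes, Pax6, a factor of eye and cortex, lay at -0.35 ± 0.03 and Otx2, a factor of the anterior brain, at -0.62 ± 0.03.

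Lists of epithelia, where Lhx2, Isl1 and Lhx3 act, were examined next. Of the 8 genes of Rathke's pouch, the pituitary rudiment, 4 were measured genes and all 4 were higher, 2 of them at least 2-fold. Pitx1, a factor of oral ectoderm and jaw, lay at 1.05 ± 0.08 and Pomc, a pituitary hormone precursor, at 0.37 ± 0.21. Hesx1, named after its value was seen, was counted with 12.4 reads in MD43 against 2.32 in WT, and was measured through MD43 alone. Pou1f1, Tbx19 and Cga, which mark the pituitary lineage itself, had under 1 read in both genotypes. The median was 0.71 over the 4 measured genes and -0.05 over all 8 with reads under 3 set to 3, where genes without reads enter at -0.48, the difference in depth alone. The summed RPKM of the list was 8.97 in WT and 15.8 in MD43.

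All 6 measured genes of the olfactory pit were higher by less than 2-fold (median 0.24), with Sp8 at 0.34 ± 0.05 and Eya2 at 0.36 ± 0.05. All 6 surface ectoderm genes were also higher (median 0.66), with a summed RPKM of 111 in WT and 175 in MD43. All 5 red blood cell genes were higher, with a median of 0.84 and a summed RPKM of 3056 in WT and 5810 in MD43. The part of tissue content in the differences of the LIM genes was not tested.

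Markers of the neurons in which Isl1, Isl2, Lhx3 and Lhx4 are best known were at few reads. Among motor neuron genes, Mnx1, Slc18a3 and Chat, the defining ones, had under 2 reads in both genotypes, and the 2 measured genes of the list had a median of -0.525. Among cranial sensory neuron genes, Tlx3 and Prph had at most 3 reads, and Pou4f1 was counted with 19.6 reads in WT against 25.3 in MD43 (-0.11 ± 0.31). The median of the 3 measured genes was 0.14, and over the 8 in the table with reads under 3 set to 3 it was -0.32. Genes of young neurons in general had a median of -0.08 over 6 measured genes and ranged from -0.49 to 0.06, and facial mesenchyme genes had a median of 0.01 over 11. Endothelium had a median of -0.09 over 4 genes and macrophages -0.57 over 3, of which the macrophage receptor Csf1r, with the most reads, lay at -0.03 ± 0.09.

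**Figure D4:**
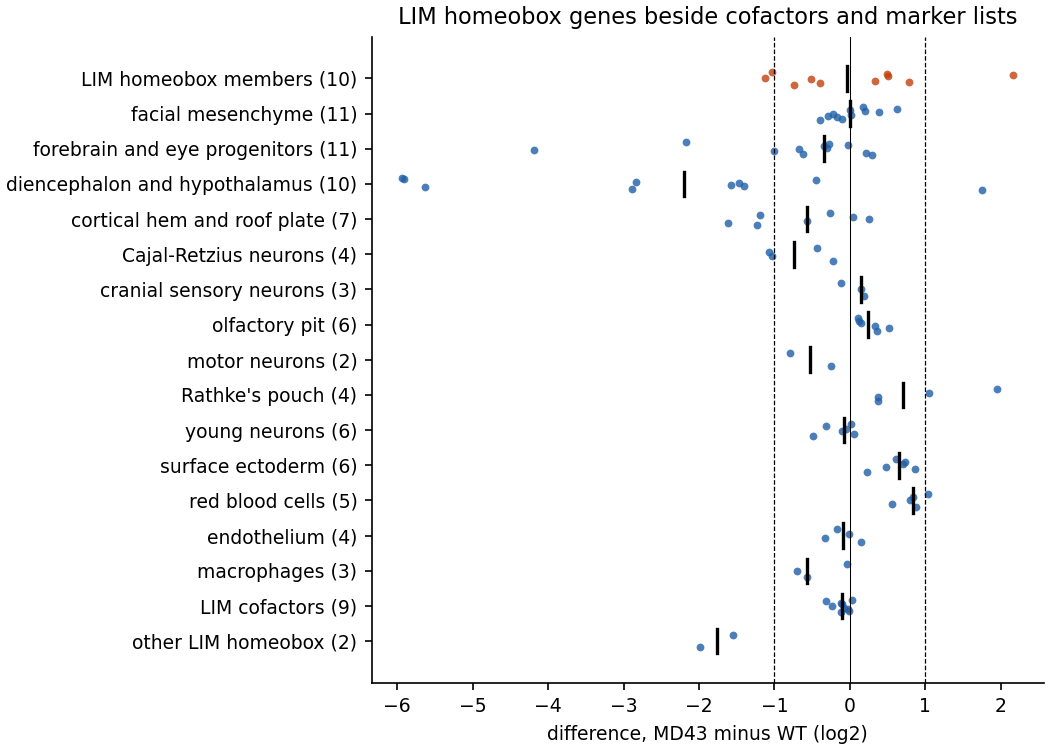
Difference (MD43 minus WT, log2, horizontal axis) of each measured gene, for the LIM homeobox genes (orange) and for cofactor and marker lists (blue, number of genes in brackets), with the median of each list as a black bar and dashed lines at 2-fold. The cofactors stay between -0.32 and 0.03, while the diencephalon and hypothalamus list has its median at -2.20 and the surface ectoderm list at 0.66.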

How the data were processed

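Genotype, replicate number and sex of each embryo follow its label. Poly(A) RNA was sequenced with a stranded kit from 100 ng of RNA, per the labels. The authors trimmed reads with Trim Galore 0.4.4, mapped them with hisat2 2.0.5 to GRCm38.p6 and quantified them in SeqMonk. The deposited values are log2 RPKM, which the authors corrected for sequencing depth and exon length and merged per genotype. Columns with the authors' fold change, mean and FDR were not used. Genes of 19 autosomes are listed.

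Gene models of GENCODE M21 were matched by symbol and coordinates for 33101 rows. Genes without reads share 1 value per genotype once length is taken out, in which a library without reads counts as 0.9 reads. From it the product of the reads of the 2 libraries was computed. Of products from 100 to 1000, 99.8% in MD43 and 99.7% in WT were whole, or whole multiples of 0.9, to within 0.02. The recovery was tested on simulated data. With 1 value per genotype, genes past a fold of 2 were counted, and no test was run. Computation used Python 3.11.15 with pandas 2.3.3 and numpy 2.4.6.

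The members and gene lists were chosen with earlier results of these data known. Named genes are all members, the other LIM homeobox genes, the cofactors, neighbours within 5 kb, Smchd1, and up to 3 genes with the most reads of a list. Some list genes are counted but not reported here by name. Foxa2, Hesx1 and list genes named as at or near 0 reads were chosen after their values were seen. Alternatives were pseudocounts of 0.1 and 1 RPKM, centring, a correction for GC content and exon length, other filters and other folds. Intervals cover counting error only.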

Additional observations from a re-analysis of the deposited data

How the results depend on the processing

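Of 40 values from 4 alternatives for the 10 members, 35 stayed within 1.96 counting SE of the value reported, 5 moved further and 0 changed sign. The moved values were those of Lhx1, Lhx3, Lhx9 and Lmx1b with a pseudocount of 1 RPKM, which exceeds the level of most of these genes, and that of Lhx2 (0.43) after the correction for GC content and length. The 2 members at least 2-fold lower became 1, Lhx5, with a pseudocount of 0.1 or 1 RPKM, with a minimum of 50 reads in a genotype and with a minimum mean level of 0 log2 RPKM. The 1 member at least 2-fold higher became 0 with a pseudocount of 1 RPKM and under both of these filters, which leave out Lhx3, and 2 with a minimum of 1.5-fold, which adds Isl2. The median of the members was -0.40 over the 7 with at least 50 reads, because Lhx3, Lhx4 and Lhx1 were left out. The other alternatives left these counts within 1.5 times. No paired analysis was possible because each genotype has a single merged column, and for the same reason no library was left out in turn. Depth limits Lhx3 and Lhx4 most.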
